A study of Homo sapiens with 3 samples.

Results

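The genes described here encode enzymes and partner proteins that write, erase or read acetyl and methyl marks on histones. They are 51 of the 20037 protein-coding gene records of the human genome (RefSeq annotation of GRCh38, the build the authors call hg38). They were taken by name, as a list drawn up with earlier results of these data known, and comprise 7 lysine acetyltransferases, 11 histone deacetylases, 5 bromodomain proteins, 5 corepressors, 5 methyltransferases for H3K4 or H3K36, 4 genes of the polycomb repressive complex 2 group, 10 lysine demethylases and 4 H3K9 methyltransferases. Chromatin immunoprecipitation with sequencing (ChIP-seq) had been done in THP1, a human monocytic leukaemia cell line, of wild-type genotype and treated for 24 h with PMA, a phorbol ester under which THP1 cells take on features of macrophages. Of the 3 samples, 1 library was made with an antibody to H3K27ac (acetylated lysine 27 of histone H3), 1 with an antibody to the deacetylase SIRT1, and 1 was an input without antibody; cells without PMA were not analysed here. The values come from 2 lists of called peaks, 1 per antibody. With 1 library per antibody of 1 cell line there is no replicate check, so counts, levels and intervals below describe these libraries and no p-value across genes is given.

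Acetyltransferases place acetyl groups on histone lysines, deacetylases remove them, and bromodomain proteins bind them. H3K27ac itself is a mark of active promoters and enhancers. Corepressor scaffolds such as NCOR1, SIN3A and RCOR1 bring deacetylases to chromatin, methylation of H3K4 accompanies active genes, and methylation of H3K9 or H3K27 accompanies silent ones. SIRT1 is an NAD-dependent deacetylase that is not a member of the HDAC gene family. In macrophages several of these genes are known for a part in inflammatory gene control, among them HDAC3, NCOR1 and the H3K27 demethylase gene KDM6B.

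Nearly all of these genes carried H3K27ac, and in most of them the mark sat at the start of the gene. An H3K27ac summit, the highest point of a peak, lay within 1 kb of either end of the gene record in 45 of 51 genes, against 53.0% of all protein-coding records. A summit lay at an end or inside the record in 50 of 51, against 63.7% of all records. EHMT2 was the gene without one. Any overlap of at least 1 base in place of the summit gave 48 genes marked at an end, against 56.7% of all records, and the record start alone gave 41 of the 48 genes whose strand is in the promoter table, against 53.3%. With windows of 500 and 2500 bp in place of 1 kb, 35 and 49 genes were marked, against 44.6% and 58.5% of all records. No gene of the 51 had a SIRT1 summit within 1 kb of an end, against 9.34% of all records, and so 0 had both marks there, against 3.39% of all records. In a window of 2500 bp 3 genes had one, HDAC4, HDAC10 and HDAC11, against 21.7% of all records.

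The label of the cells was checked against marker genes. Of 12 macrophage genes, 6 had an H3K27ac summit at a gene end (SPI1, CEBPB, CSF1R, CD14, CD68 and ITGAM), a share slightly below the 53.0% of all records. ITGAX, FCER1G, TYROBP, LYZ, CD163 and MRC1 had none at an end, and 9 of the 12 had one at an end or inside, or 75.0%, against 63.7% of all records. The count at gene ends therefore does not set these markers apart, and their median fold at an end was 5.49, against 4.58 in all records. Coverage and inner density were higher. H3K27ac covered a median of 53.5% of their records, against 1.47%, and 22.2% of their pooled length, against 2.83%. They had 9.51 inner summits per 100 kb, against 1.78. The mark was found at 1 of 12 markers of T, B, erythroid, liver, neural and epithelial cells, the glial gene GFAP. The 4 inner summits of GFAP gave that list 3.37 per 100 kb (0.918 to 8.63, exact Poisson), also above 1.78. Median coverage in that list was 0%, and pooled coverage 5.03%. The libraries held 50268 H3K27ac and 96805 SIRT1 peaks, and the number of sequenced reads is not given in the sources used here. The fold of a peak, the height at its summit over the local background, is the authors' own value and is compared only within 1 list. The number of fragments at each summit was recovered from the fold and the −log10 p, and shows the counting behind each value. It had a median of 15 for H3K27ac peaks and 3 for SIRT1 peaks. Ranges in parentheses after it are 95% exact Poisson intervals, which cover the error of counting and no other.

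The promoters shown first are those of the gene in each group with the highest H3K27ac fold within 1 kb of a record end, among the genes whose promoters could be printed. In 7 of the 8 the printed start lay inside an H3K27ac peak; the EHMT1 start lay between 2 peaks, which end at 137618960 and begin at 137619246. Each runs from 150 bases before to 49 bases after the base at which RefSeq starts the transcript, 5′ to 3′ on the strand of the gene, as the RefSeq promoter table of GRCh38.p14 gives it; 48 of the 51 genes were matched in that table. Capitals mark the motifs searched on both strands, whose letters and frequencies are given further on.
KAT5 chr11:65712102-65712301, plus strand: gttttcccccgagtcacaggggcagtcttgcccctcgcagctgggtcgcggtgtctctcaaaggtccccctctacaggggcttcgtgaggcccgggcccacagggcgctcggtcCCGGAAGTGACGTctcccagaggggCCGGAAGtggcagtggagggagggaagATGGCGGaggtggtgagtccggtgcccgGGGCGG
HDAC4 chr2:239401600-239401799, minus strand: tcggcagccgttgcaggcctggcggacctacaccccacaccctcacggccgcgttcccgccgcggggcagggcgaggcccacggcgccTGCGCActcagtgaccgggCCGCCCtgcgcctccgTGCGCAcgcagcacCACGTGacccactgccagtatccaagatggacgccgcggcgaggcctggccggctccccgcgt
BRD9 chr5:892752-892951, minus strand: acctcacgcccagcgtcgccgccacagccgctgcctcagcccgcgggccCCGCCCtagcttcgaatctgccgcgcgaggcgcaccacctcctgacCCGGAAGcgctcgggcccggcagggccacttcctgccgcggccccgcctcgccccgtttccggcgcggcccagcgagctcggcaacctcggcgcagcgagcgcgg
ZMYND8 chr20:47356650-47356849, minus strand: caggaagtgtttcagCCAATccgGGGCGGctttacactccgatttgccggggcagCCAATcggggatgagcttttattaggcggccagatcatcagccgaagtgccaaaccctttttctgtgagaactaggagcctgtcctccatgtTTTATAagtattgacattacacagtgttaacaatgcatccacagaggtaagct
KMT2C chr7:152435954-152436153, minus strand: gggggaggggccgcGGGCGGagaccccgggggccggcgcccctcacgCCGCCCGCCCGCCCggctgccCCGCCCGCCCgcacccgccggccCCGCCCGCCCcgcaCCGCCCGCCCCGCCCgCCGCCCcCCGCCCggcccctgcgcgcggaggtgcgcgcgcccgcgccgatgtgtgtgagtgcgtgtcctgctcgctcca
SUZ12 chr17:31936857-31937056, plus strand: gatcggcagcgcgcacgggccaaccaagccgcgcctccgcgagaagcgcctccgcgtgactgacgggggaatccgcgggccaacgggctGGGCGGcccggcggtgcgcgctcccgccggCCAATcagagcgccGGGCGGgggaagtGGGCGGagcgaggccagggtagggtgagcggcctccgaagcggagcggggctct
KDM5C chrX:53225158-53225357, minus strand: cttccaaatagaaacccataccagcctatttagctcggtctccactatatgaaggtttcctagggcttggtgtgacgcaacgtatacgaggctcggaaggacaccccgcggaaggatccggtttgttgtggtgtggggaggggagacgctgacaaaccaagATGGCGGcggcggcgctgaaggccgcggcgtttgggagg
EHMT1 chr9:137618855-137619054, plus strand: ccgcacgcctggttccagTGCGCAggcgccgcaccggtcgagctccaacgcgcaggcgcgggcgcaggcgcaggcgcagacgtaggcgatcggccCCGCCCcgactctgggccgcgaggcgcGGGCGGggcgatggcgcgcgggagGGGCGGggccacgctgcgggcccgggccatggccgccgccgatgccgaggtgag

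The KMT2C stretch held 13 GC boxes (GGGCGG on either strand) and 88.0% G and C. The ZMYND8 stretch held 1 GC box, 2 CCAAT boxes and a TATAAA match, and 49.0% G and C with 7 CpG dinucleotides, against 37 CpG in KMT2C. Of the 8, ZMYND8 had the highest H3K27ac fold at an end and the fewest CpG. The KAT5 stretch held 2 ETS-type matches (CCGGAAG), and the KDM5C stretch held 1 match to ATGGCGG, the core of the YY1 motif, and no GC box.

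Across the 51 genes the highest H3K27ac fold at a gene end had a median of 21.5, with genes that lack such a peak counted as 0. The median over all protein-coding records, counted in the same way, was 4.58. A fold of at least 20 was reached by 30 of the 51 genes and by 24.1% of all records, and a fold of at least 40 by 8 genes and by 8.31% of all records. Of the 45 genes with a summit at an end, 38 had the strongest one at the start, 4 had it at the far end, and for 3 the strand is not in the table used here. Of the 38 summits at the start, 29 lay downstream and 9 upstream of the first base, with a median position of 201 bp downstream. The peaks had a median width of 1874 bp, from 576 bp at KDM4B to 10639 bp at ZMYND8. Their summits rested on 13 to 448 fragments.

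**Figure D1:**
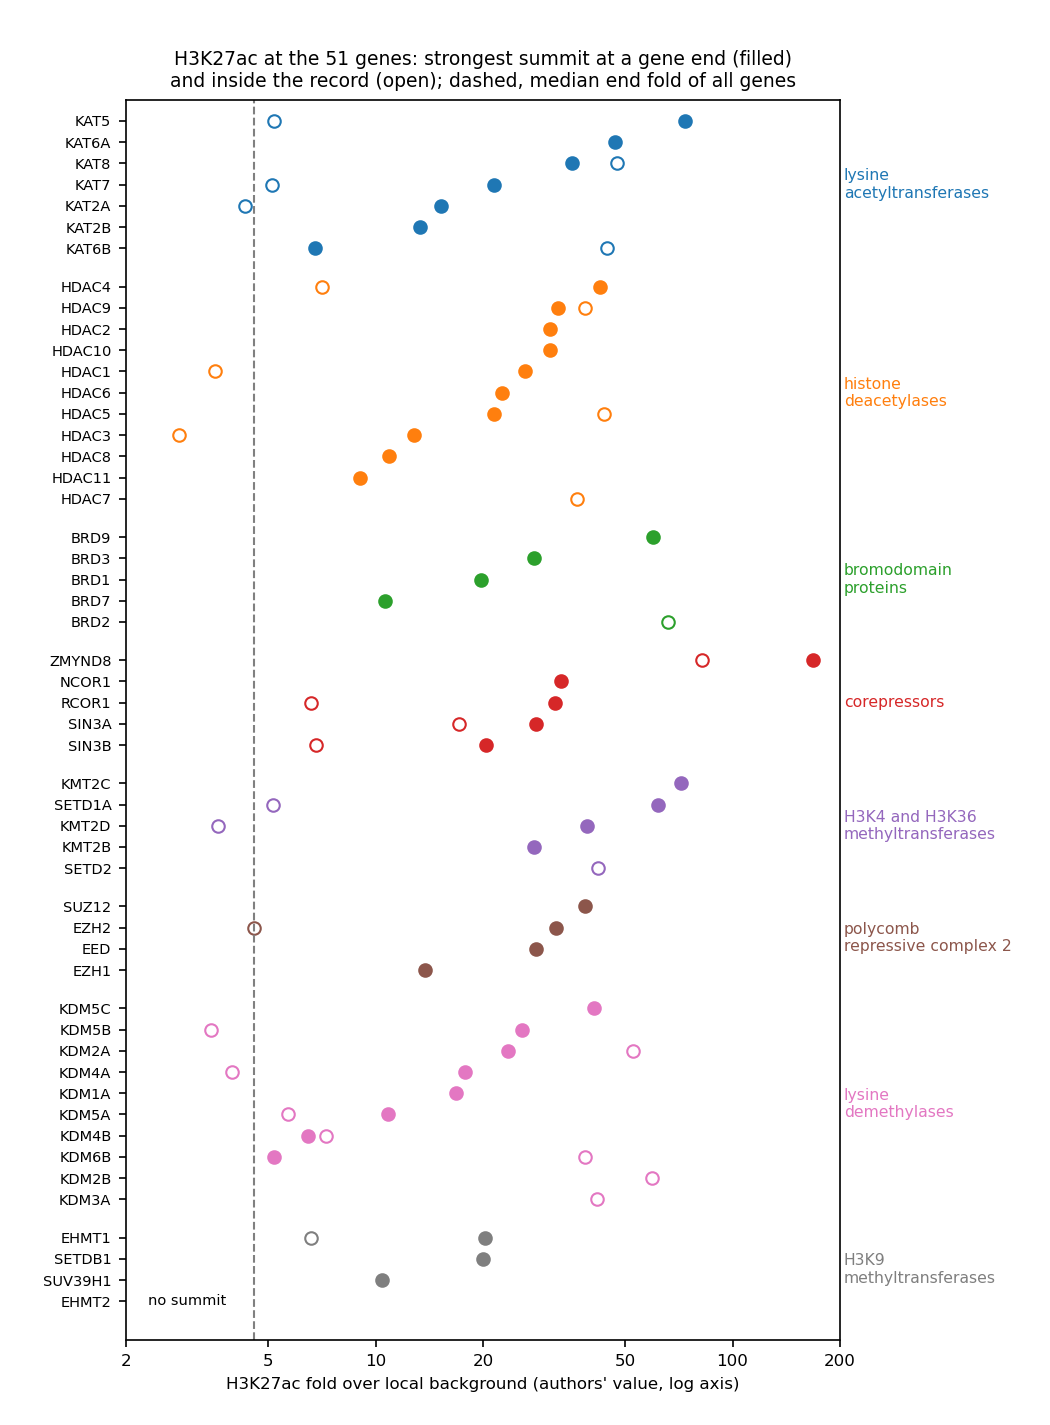
H3K27ac fold over local background (x axis, log scale, the authors' value) at each of the 51 genes (rows, grouped by role). Filled points are the strongest summit within 1 kb of a gene end and open points the strongest summit inside the record, and the dashed line marks the median end fold of all genes, 4.58. ZMYND8 stands farthest right at 168, and 5 genes have only an open point (HDAC7, BRD2, SETD2, KDM2B and KDM3A).

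**Figure D2:**
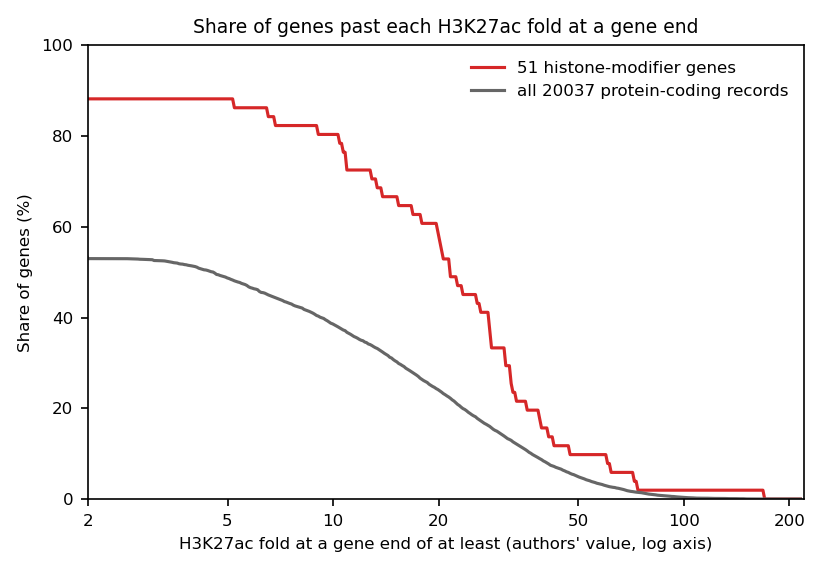
Share of genes (y axis, percent) whose H3K27ac fold at a gene end reaches the value on the x axis (log scale), for the 51 histone-modifier genes and for all 20037 protein-coding records. The line of the 51 genes starts at 88.2% and the line of all records at 53.0%, and both fall below 10% by a fold of 60.

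All 7 lysine acetyltransferase genes had H3K27ac at an end. KAT5, which encodes TIP60, the catalytic subunit of the NuA4 complex, had its peak at 65711135 to 65713767 of chromosome 11. The fold was 73.4, rank 304 among all genes, on 239 fragments (210 to 271). KAT6A, which encodes the acetyltransferase MOZ, followed with a fold of 47.0 on 116 fragments (96 to 139), and KAT8, which encodes the H4 acetyltransferase MOF, with 35.5 on 92 fragments (74 to 113) at an end within 1 kb of BCKDK. The intervals of the fragments at KAT6A and KAT8 overlapped, and that of KAT5 stood above both. KAT7, the HBO1 gene, had a fold of 21.5 at an end it shares within 1 kb with FAM117A. The paralogs KAT2A (GCN5) and KAT2B (PCAF), whose products work in the SAGA and ATAC coactivator complexes, had 15.3 and 13.4. At KAT2A that value came from the far end, within 1 kb of an end of the antiviral gene DHX58, and the fold at its own start was 7.69. KAT6B, the paralog of KAT6A, had the lowest value at an end, 6.79. Its stronger peak, with a fold of 44.5, had its summit 1.8 kb into the record and 147 bp from a RefSeq start of KAT6B. KAT8 had the most summits inside its record for its length, 25.6 per 100 kb, which were 3 summits with folds up to 47.5.

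Among the 11 deacetylase genes, 10 had H3K27ac at an end. HDAC4, a class IIa gene, led with a fold of 42.6 on 166 fragments (142 to 193), followed by HDAC9, also class IIa, with 32.5 on 158 fragments (134 to 185) and by the class I gene HDAC2 with 30.9 on 120 fragments (99 to 143). The fragment intervals of HDAC4 and HDAC9 overlapped, as did those of HDAC9 and HDAC2. HDAC10, a class IIb gene whose product acts on polyamines, had 30.8, but at its far end, within 1 kb of TUBGCP6, and 8.48 at its start. The other class I genes had 26.2 at HDAC1, 12.8 at HDAC3 and 10.9 at HDAC8. HDAC3 encodes the catalytic subunit of the NCOR complex, and its strongest summit lay 637 bp upstream of the start, within 1 kb of RELL2. HDAC6, which encodes the cytoplasmic tubulin deacetylase, had 22.6, HDAC5 of class IIa had 21.5, and HDAC11, the class IV gene, had the lowest fold of those marked, 9.04. HDAC7, the remaining class IIa gene, had no summit within 1 kb of an end and is described below with the other genes that lacked one.

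Class IIa deacetylases, which bind the MEF2 factors and shuttle between nucleus and cytoplasm, held most of the 55 inner summits of the group. HDAC9 had 29 summits inside its record of 915.6 kb, HDAC5 had 11 in 46.9 kb, HDAC4 had 9 in 353.5 kb and HDAC7 had 4 in 38.6 kb. HDAC5 was the densest of the 11 at 24.5 per 100 kb, with folds up to 43.7, and H3K27ac covered 40.6% of its record. A stitched domain over HDAC5, joining peaks no more than 12.5 kb apart, ran 58.7 kb and held 16 peaks. It was rank 213 by length among 19489. The domain, from 44065673 to 44124381 on chromosome 17, reached past both ends of the record (44076753 to 44123641), so part of it lay outside HDAC5. In HDAC9 the highest fold, 38.6, was not at the start of the record but 779.4 kb into it, in a peak 9701 bp wide. HDAC2, HDAC6, HDAC8, HDAC10 and HDAC11 had no summit inside the record beyond 1 kb from its ends.

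Of the 5 bromodomain genes, 4 had H3K27ac at an end. BRD9, a subunit gene of the non-canonical BAF remodelling complex, had a fold of 59.98 on 303 fragments (270 to 339). Its start lies within 1 kb of an end of TRIP13, so the peak cannot be assigned to 1 of them. BRD3, a BET family gene, had 27.8, BRD1, which encodes a scaffold of the KAT6 and KAT7 complexes, had 19.7, and BRD7, a PBAF subunit gene, had the lowest value, 10.6. BRD2, a BET family gene on chromosome 6, had no summit within 1 kb of an end but a peak with a fold of 66.1 inside, and the highest inner density of the group, 18.3 per 100 kb from 2 summits.

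The 5 corepressor genes all had H3K27ac at an end, and ZMYND8 exceeded the other members by a wide margin. ZMYND8 encodes a reader of acetylated and methylated histones that binds the NuRD and KDM5 corepressors. Its peak at the start spanned 47352571 to 47363209 on chromosome 20. The fold there was 168, rank 3 of all genes, on 448 fragments (407 to 491). Inside the record it had 23 further summits, 15.8 per 100 kb, and H3K27ac covered 26.2% of the 147.5 kb. The strongest of them, with a fold of 82.4, lay 37.6 kb into the record. Stitched domains of 40.1 and 35.4 kb lay within the record. Another, of 47.3 kb, ran from 47346099 to 47393378. It thus reached upstream past the record start at 47356699, and most of it lay outside the record. NCOR1, the nuclear receptor corepressor gene, had 33.1, and RCOR1, which encodes the CoREST partner of KDM1A, had 31.8. Their fragment numbers, 118 (98 to 141) and 134 (112 to 159), did not differ beyond counting error. SIN3B had 20.4, the lowest of the group. SIN3A had 28.2, at its far end and within 1 kb of MAN2C1; its strongest summit near its own start had a fold of 17.1 and lay 1072 bp from it, just outside the 1 kb limit.

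Among the methyltransferase genes for H3K4 and H3K36, 4 of 5 had H3K27ac at an end. KMT2C, which encodes the enhancer H3K4 methyltransferase MLL3, had a fold of 71.9 on 144 fragments (121 to 170), and no summit inside its record of 301.1 kb. SETD1A, a promoter H3K4 methyltransferase gene, had 62.0 on 262 fragments (231 to 296) and the most inner summits of the group for its length, 8.03 per 100 kb. Fold and fragments ranked these 2 genes differently, since the recovered background was 1.09 times the lowest rate of the list at KMT2C and 3.46 times at SETD1A. KMT2D, the paralog of KMT2C, had 39.1 on 75 fragments at its far end, within 1 kb of PRKAG1, and 36.6 on 95 fragments at its start. Here too fold and fragments gave different orders, with backgrounds of 1.01 and 1.73 times the lowest rate. KMT2B had the lowest value, 27.8. SETD2, which encodes the enzyme for trimethylation of H3K36, had no summit within 1 kb of an end. Its strongest summit lay within 1 kb of its only RefSeq start, 0.7 kb into the record.

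The polycomb genes were all acetylated at an end, with SUZ12 at a fold of 38.5 on 100 fragments (81 to 122), EZH2 at 32.1 on 104 (85 to 126) and EED at 28.2 on 101 (82 to 123). SUZ12 and EED encode core subunits and EZH2 the catalytic subunit of the complex that methylates H3K27. The fragment numbers of these 3 genes did not differ beyond counting error. EZH1, which encodes the alternative catalytic subunit, had a fold of 13.8 on 44 fragments (32 to 59), below the other 3 and outside their intervals. Inside the 4 records there was 1 summit, or 0.453 per 100 kb, at EZH2 with a fold of 4.56.

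Of the 10 lysine demethylase genes, 8 had H3K27ac at an end. KDM5C, an X-linked H3K4 demethylase gene, had a fold of 41.0 on 133 fragments (111 to 158), at a start within 1 kb of IQSEC2. Its paralogs KDM5B and KDM5A had 25.6 and 10.8, the KDM5A value at a start within 1 kb of CCDC77. KDM2A, an H3K36 demethylase gene that binds CpG islands, had 23.4 at the start of its record and a higher fold, 52.5, inside. KDM4A, an H3K9 and H3K36 demethylase gene on chromosome 1, had 17.8, KDM1A, the gene of the flavin-dependent demethylase LSD1, had 16.8, and KDM4B had 6.47. At KDM4A the background was 11.8 times the lowest rate of the list, the highest at any of the 51 genes. Its modest fold therefore stood on 213 fragments (185 to 244). HDAC4 had 166 fragments (142 to 193), an overlapping interval, on a background 3.12 times that rate. KDM6B, which encodes the H3K27 demethylase JMJD3, had the lowest fold at an end of all marked members, 5.19 on 17 fragments (10 to 27), at a summit within 1 kb of LOC124904106. Inside, KDM6B had 4 summits with folds up to 38.6, 9.1 kb into the record, and the mark covered 42.5% of its 20.6 kb. That was 21.5 inner summits per 100 kb, the highest density of the group. KDM2B and KDM3A had no summit within 1 kb of an end.

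Of the H3K9 methyltransferase genes 3 of 4 were marked at an end, and their highest fold was the lowest maximum of the 8 groups. By the median fold, with unmarked genes as 0, they stood at 15.2 and the demethylases lower, at 13.8. EHMT1, which encodes GLP, had a fold of 20.3 on 151 fragments (128 to 177), SETDB1 had 20.03 on 71 fragments (55 to 90) and SUV39H1 had the lowest, 10.4 on 23 fragments (15 to 35). EHMT1 also had 5 inner summits with folds up to 6.58, or 2.32 per 100 kb. EHMT2, which encodes G9a, the partner of GLP, had no H3K27ac and no SIRT1 summit anywhere in its record of 17.9 kb (31879759 to 31897698 on chromosome 6). The nearest H3K27ac peak was 4573 bp away, from 31902271 to 31902655, with a fold of 4.56 on 8 fragments. EHMT2 and BRD2 lie in the major histocompatibility region, for which the build also carries alternate contigs. Those contigs of chromosome 6 held 551 H3K27ac peaks, with folds up to 76.9, and the part of reads placed there in the value at EHMT2 was not tested.

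The genes without a summit at an end of the record were next examined at the transcript starts that RefSeq lists, since a record spans all transcripts of a gene. The promoters of these 6 genes are printed to show the starts that the values below refer to. For BRD2 and KDM2B both the outer start and the start with the highest fold within 1 kb are given.
HDAC7 chr12:47819854-47820053, minus strand: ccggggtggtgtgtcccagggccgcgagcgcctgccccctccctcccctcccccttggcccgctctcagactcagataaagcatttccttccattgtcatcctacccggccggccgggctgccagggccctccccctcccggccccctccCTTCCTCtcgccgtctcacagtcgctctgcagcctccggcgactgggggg
SETD2 chr3:47164064-47164263, minus strand: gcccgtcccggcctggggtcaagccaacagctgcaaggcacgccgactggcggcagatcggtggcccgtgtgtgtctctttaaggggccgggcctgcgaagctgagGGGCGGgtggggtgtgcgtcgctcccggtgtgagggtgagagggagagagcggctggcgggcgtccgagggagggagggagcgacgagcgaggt
KDM3A chr2:86441221-86441420, plus strand: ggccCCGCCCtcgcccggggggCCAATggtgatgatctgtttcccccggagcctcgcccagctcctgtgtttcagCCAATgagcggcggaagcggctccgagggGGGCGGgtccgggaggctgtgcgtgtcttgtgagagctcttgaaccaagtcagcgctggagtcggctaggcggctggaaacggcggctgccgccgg
BRD2 outer start chr6:32968444-32968643, plus strand: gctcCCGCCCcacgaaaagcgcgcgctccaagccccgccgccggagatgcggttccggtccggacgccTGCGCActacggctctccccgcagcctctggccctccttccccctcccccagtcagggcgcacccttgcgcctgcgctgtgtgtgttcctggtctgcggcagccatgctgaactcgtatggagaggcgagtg
BRD2 inner start chr6:32970780-32970979, plus strand: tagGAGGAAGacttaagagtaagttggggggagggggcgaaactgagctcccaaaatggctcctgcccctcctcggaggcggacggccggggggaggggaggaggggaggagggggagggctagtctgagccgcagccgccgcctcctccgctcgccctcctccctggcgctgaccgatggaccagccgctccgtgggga
KDM2B outer start chr12:121580974-121581173, minus strand: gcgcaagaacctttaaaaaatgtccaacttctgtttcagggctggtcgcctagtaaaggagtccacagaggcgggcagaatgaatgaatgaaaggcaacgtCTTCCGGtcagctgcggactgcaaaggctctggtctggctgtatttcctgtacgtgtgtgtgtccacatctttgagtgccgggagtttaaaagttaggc
KDM2B inner start chr12:121467329-121467528, minus strand: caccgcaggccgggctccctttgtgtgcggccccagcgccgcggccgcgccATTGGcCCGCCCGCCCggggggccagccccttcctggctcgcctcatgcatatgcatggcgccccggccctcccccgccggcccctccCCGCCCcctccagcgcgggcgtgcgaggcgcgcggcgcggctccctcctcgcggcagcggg
EHMT2 chr6:31897649-31897848, minus strand: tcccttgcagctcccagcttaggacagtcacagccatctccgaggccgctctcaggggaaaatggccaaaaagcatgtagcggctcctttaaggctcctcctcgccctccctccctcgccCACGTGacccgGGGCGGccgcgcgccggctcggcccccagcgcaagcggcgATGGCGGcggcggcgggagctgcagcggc

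The other 5 of these genes carried H3K27ac at a listed start. HDAC7 had a fold of 36.6 within 1 kb of a start that lies 1.4 kb into the record, SETD2 had a fold of 42.0 at 0.7 kb, and KDM3A, an H3K9 demethylase gene, had a fold of 41.8 at 4.3 kb. At BRD2 the peak with a fold of 66.1 ran from 32967941 to 32971966 and covered the first 3 of 4 starts, with its summit within 1 kb of the start at 2.3 kb. At KDM2B, the paralog of KDM2A, the outer starts had folds of 3.81 and 12.5, whereas the start 114.9 kb into the record, from which a shorter transcript begins, had 59.6. The stretch at the inner KDM2B start held 29 CpG dinucleotides and 3 GC boxes, against 8 CpG and no GC box at the outer start shown. The EHMT2 stretch held 21 CpG, 1 GC box, 1 E-box (CACGTG) and 1 ATGGCGG match, while no H3K27ac summit lay within 1 kb of it.

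Counted by transcript starts, 46 of the 48 members in the promoter table had a summit within 1 kb of a start, against 57.3% of all records in that table. The 2 others were EHMT2 and SIN3B, whose listed start lies 33.9 kb into its record, while its H3K27ac summit lay 99 bp from the record's start. Of 78 member starts, 67 had a summit within 1 kb and 59 lay inside a peak, against 52.8% and 45.2% of all starts. Among the 17 members with several starts, all starts had a summit within 1 kb in 11, some but not all in 6, and none in 0. The shares of all genes with several starts were 38.0%, 29.5% and 32.5%. Of the 6, BRD2, EZH2 and SIN3A had their starts without such a summit inside an H3K27ac peak, and HDAC4, NCOR1 and BRD1 had them outside any peak. In KDM2A the inner start at 120.8 kb had the higher fold, 52.5 against 23.4 at the outer start, the same arrangement as in KDM2B. HDAC9 had folds of 32.5 at its outer start, 14.4 at the 3 starts between 408.9 and 409.4 kb and 24.5 at the start 422.4 kb into the record. In HDAC4 the outer start had 42.6 and the inner starts between 103.1 and 134.1 kb had at most 4.20. NCOR1 and BRD1 were marked at the outer start and not at inner starts at 20.9 kb in NCOR1 and at 2.0 and 2.5 kb in BRD1.

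**Figure D3:**
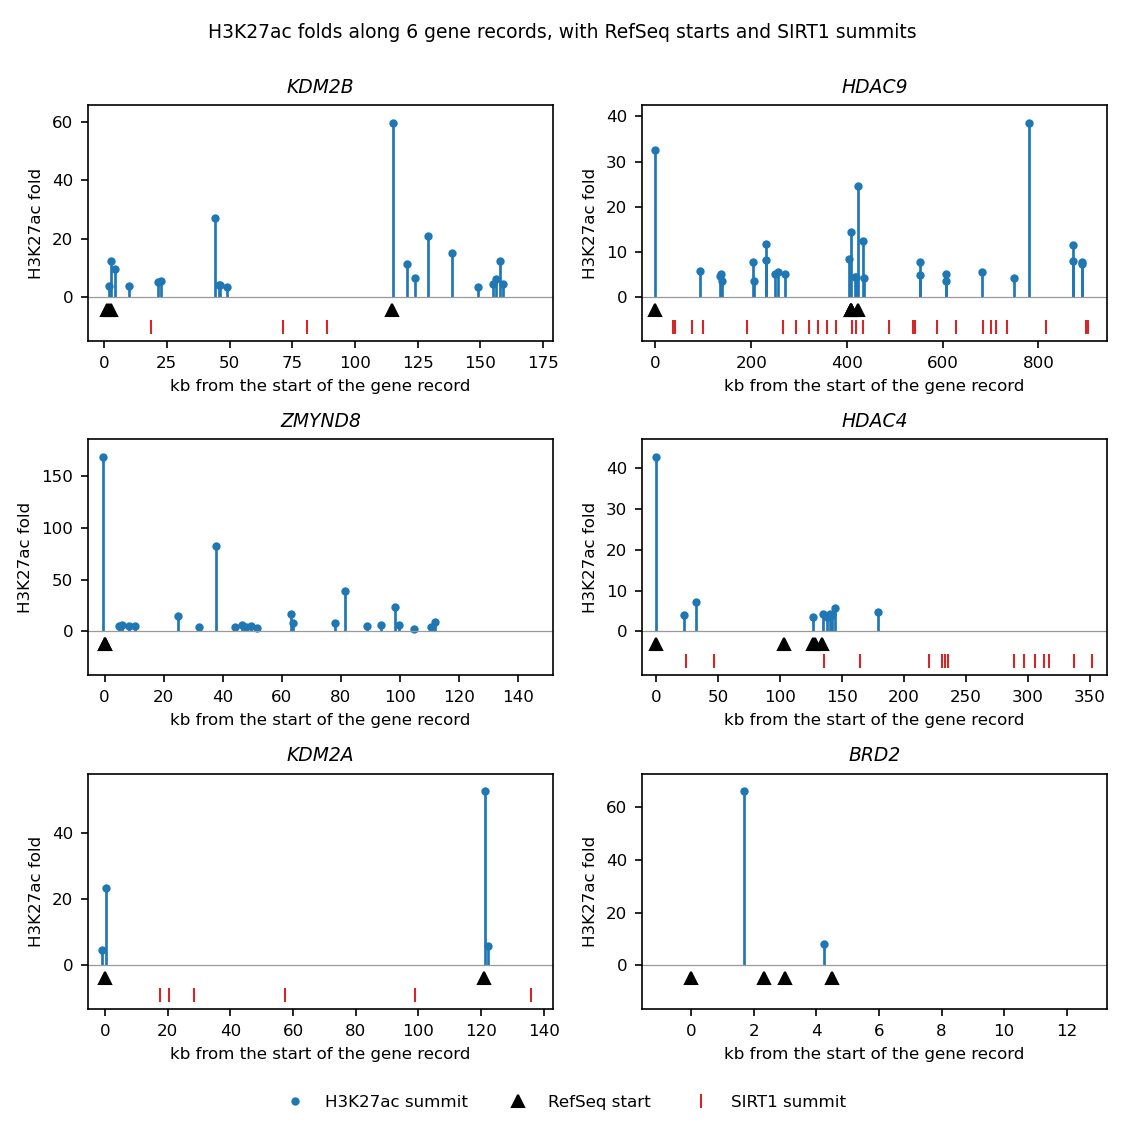
H3K27ac fold (y axis) at each summit against the distance from the start of the gene record in kb (x axis), for KDM2B, HDAC9, ZMYND8, HDAC4, KDM2A and BRD2. Triangles mark RefSeq starts and red ticks SIRT1 summits; in KDM2B and KDM2A the tallest summit stands at the inner start, 114.9 kb and 120.8 kb into the record, and in ZMYND8 and HDAC4 at the outer one.

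Inside the records, beyond 1 kb from either end, 29 of 51 genes had H3K27ac, against 32.0% of all records. The 51 records were longer than usual, with a median of 51.0 kb against 24.1 kb, so density was compared as well. The 51 genes had 144 inner summits, or 2.91 per 100 kb (2.45 to 3.42, exact Poisson), against 1.78 in all records. HDAC9, ZMYND8, KDM2B and HDAC5 held 83 of the 144, and without these 4 genes, chosen after their values were seen, the density was 1.66. Of the 144 inner summits, 16 lay within 1 kb of a RefSeq start of the same gene and 5 within 1 kb of an end of another gene. In 12 genes the highest fold lay inside the record, among them 7 that also had a summit at an end. H3K27ac covered a median of 3.45% of the record, against 1.47% in all records. The highest shares were 45.6% at KAT8, 42.5% at KDM6B and 40.6% at HDAC5.

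A list of 70 further genes of the same pathways was counted beside these. An H3K27ac summit lay at an end in 57 of the 70, or 81.4%, against 88.2% of the 51 genes and 53.0% of all records. One lay at an end or inside in 67, or 95.7%, against 98.0% and 63.7%. High shares were thus found in both lists. Their median fold at an end was 17.0, against 4.58 in all records. They had 1.86 inner summits per 100 kb, near the 1.78 of all records. SIRT1 summits lay at an end in 3 of the 70, or 4.3%, against 9.34% of all records.

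SIRT1 peaks were found within 29 of the 51 records, all beyond 1 kb from the ends, against 48.0% of all records with an inner summit. These 29 genes held 123 summits, or 2.39 per 100 kb (1.98 to 2.85), while all records had 3.20. The peaks rested on few fragments. At 53 of the 123 summits there were 2, at 46 there were 3, at 19 there were 4, at 3 there were 5 and at 2 there were 6. The fold ran from 2.13 to 5.07 with a median of 2.78. A q of at most 0.05 was reached at 1 summit, in KDM5B, and by 144 of the 96805 peaks of the whole SIRT1 list. In that list 84.4% of peaks rested on 2 or 3 fragments, so low counts were not particular to these genes.

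That KDM5B peak spanned 202788145 to 202788511 on chromosome 1, 20.1 kb into the record, with a fold of 5.07 on 6 fragments and a −log10 q of 1.38. It lay 15.0 kb from the nearest H3K27ac peak. KMT2C had the next highest SIRT1 fold, 4.41 on 5 fragments, 178.0 kb from the nearest H3K27ac peak, and EHMT1 had 4.16 on 5 fragments, 2.2 kb from one; both had a −log10 q of 0.614. In the other groups the highest SIRT1 folds were 3.71 at BRD9, 3.67 at HDAC4 and KAT6B, 3.47 at SIN3A, and 2.94 at EZH2 and EED. The peak with 6 fragments in KDM4A had a fold of 3.19, on a background 3.31 times the lowest rate of the SIRT1 list.

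Of the 123 SIRT1 peaks 2 overlapped an H3K27ac peak, both in HDAC9. That was 1.6%, near the 1.03% that overlapped one among the 39795 SIRT1 peaks inside any record, beyond 1 kb from its ends. The median distance of the 123 to the nearest H3K27ac peak was 21.6 kb. The first of the 2 overlapping peaks, from 18496522 to 18497046 on chromosome 7, had 3 fragments, and its summit lay 515 bp from a RefSeq start of HDAC9. It was the only SIRT1 summit within 1 kb of a listed start among the 48 members, against 4.28% of all records in that table. The second, from 18506418 to 18506714, had 2 fragments.

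The 16 genes over 100 kb held 91 of the 123 SIRT1 summits, or 74.0%, and made up 73.2% of the length of the 51 records. HDAC9 had 26 and HDAC4 had 15, and the 35 shorter genes held 32. Of the 14 genes under 30 kb, 1 had a SIRT1 summit, which was BRD9. Among the 16 long genes, 4 had none: HDAC8, NCOR1, ZMYND8 and KDM5A. ZMYND8 had 23 inner H3K27ac summits and 0 SIRT1 summits, and KMT2C had 0 inner H3K27ac summits and 7 SIRT1 summits.

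**Figure D4:**
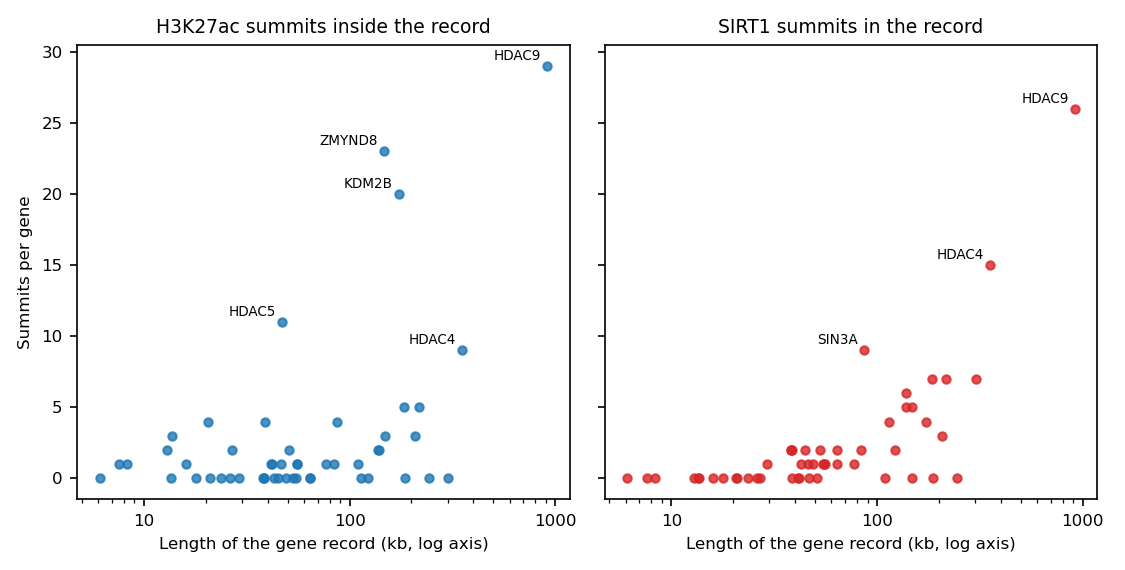
Summits per gene (y axis) against the length of the gene record in kb (x axis, log scale) for the 51 genes, with H3K27ac summits inside the record on the left and SIRT1 summits on the right. HDAC9 is the longest and highest in both, with 29 and 26; ZMYND8, KDM2B and HDAC5 stand high for H3K27ac at shorter lengths, and most genes under 30 kb sit at 0 for SIRT1.

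The promoters of the 48 members in the table were finally compared by sequence with those of 15842 records, taking the outermost start of each gene and 300 bases around it (250 before the start and 50 from it). Members had a median of 69.2% G and C and 30 CpG, against 62.7% and 22 in all. GGGCGG was found in 34 of the 48 members (70.8%) and in 58.3% of all. The NRF1 core TGCGCA was found in 13 members (27.1%), against 10.8% of all, among them HDAC1, HDAC2, HDAC3, EZH1, EED and EHMT1. ATGGCGG was found in 7 (14.6%) against 7.57%, CACGTG in 6 (12.5%) against 8.82%, TGACGT, the core of the cAMP response element, in 5 (10.4%) against 9.66%, and CCGGAAG in 7 (14.6%) against 14.2%. CCAAT was found in 13 (27.1%) against 36.4%, TATAAA in 2 (4.2%) against 9.75%, the AP-1 motif TGANTCA in 1 (2.1%) against 5.70%, and GAGGAAG, a PU.1-type motif, in 6 (12.5%) against 14.2%. CCGGAAG and GAGGAAG share the letters GGAAG. These matches describe the letters in the window and were not tested.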

How the data were processed

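Peaks were called with MACS2 on build hg38, and deepTools was used, per the submitters' processing notes. For tool versions, aligner and control, each is not given in the sources used here. Names in the deposited lists refer to a duplicate-marking step. Fold (a ratio to local background), −log10 p and −log10 q are the authors' deposited values. The deposited score, 10 times −log10 q for H3K27ac and 10 times −log10 p for SIRT1, was not used further. The smallest −log10 q was 1.30 for H3K27ac and 0 for SIRT1, where the smallest −log10 p was 2.00, so the lists were filtered differently.

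Peaks on chromosomes 1 to 22, X and Y were assigned to protein-coding records by their summit, at an end (within 1 kb) or inside. A promoter table of RefSeq (GRCh38.p14) gave strand and starts for 48 members. Fragments were recovered as the whole number that, with 1 added to it and to the background, gives both the fold and the Poisson p. A single solution was found for 99.998% of peaks in the H3K27ac list and 99.992% in the SIRT1 list, and the step was tested on simulated data. Every member is named; full values go to the 3 highest and the lowest end folds per group, members without an end summit, and the highest inner density and SIRT1 fold. Members and lists were chosen with earlier results of these data known. Software was scipy 1.17.1, pandas 2.3.3, numpy 2.4.6 and matplotlib 3.10.9 under Python 3.11.15. Depth per sample is unknown, which limits precision to the counts of fragments given. The input was not analysed here.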

Additional observations from a re-analysis of the deposited data

Results flagged for a closer look

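Signal was present in a portion of the H3K27ac list that no comparison used. The alternate contigs of chromosome 6 held 551 H3K27ac peaks. No number to be expected there was computed, so the count shows only that such peaks are present. They bear on BRD2 and EHMT2, whose records lie in the region these contigs repeat. No gene annotation of the contigs was used here, so their peaks were not assigned to either gene.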

How the results depend on the processing

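Of 57 values recomputed under other settings, 44 stayed within 1.5 times the reported count or within the interval of the reported value, and 13 did not. Counts of genes with SIRT1 at an end, and with both marks there, were 0 as reported. Settings that only drop peaks or narrow the window could not change a 0, and these fixed outcomes are among the 44. The number of genes with H3K27ac at an end ran from 35 with a window of 500 bp to 49 with 2500 bp; it was 48 for any overlap of 1 base and 41 for the record start alone. With a −log10 q of at least 5, inner H3K27ac density was 1.96 per 100 kb, and no SIRT1 summit was left, so genes with an inner one (29 as reported) and their density (2.39) both became 0. A fold of at least 4 left 3 genes with an inner SIRT1 summit and 0.058 per 100 kb. A q of at most 0.05 left 1 gene and 0.019, and at least 4 fragments left 15 genes and 0.465. Values of all records under these filters are not given here, so the filtered values cannot be compared with all records. A window of 2500 bp gave 3 genes with SIRT1 at an end (HDAC4, HDAC10 and HDAC11) and 3 with both marks, against 21.7% of all records with SIRT1. The share of all records with both marks in that window is not given here. Both marks need not lie at the same end. At HDAC4 the SIRT1 summit, on 2 fragments, lay 352.1 kb into the record and the H3K27ac summit 0.1 kb into it. Chosen after seeing the data, any RefSeq start gave 1 gene with SIRT1, and leaving out the 4 genes with most inner H3K27ac summits gave 1.66 per 100 kb. These changes follow from fewer peaks, other windows or fewer genes. SIRT1 values rest on 2 or 3 fragments at 80.5% of member summits, against 84.4% of all SIRT1 peaks. No paired analysis was possible because each antibody had 1 library.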
